A study of Mus musculus with 72 samples.

Results

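The circadian clock genes described here were Arntl, Clock, Npas2, Per1, Per2, Per3, Cry1, Cry2, Nr1d1 and Dbp, 10 of the 53715 genes in the count tables, taken by symbol. All 10 were present, and all 10 passed the filter on low counts in each of the 5 tissues. RNA-seq had been run on 72 libraries from 18 male mice of 18 weeks on the C57BL/6J background, of which 6 were homozygous (Gnb5−/−) and 6 heterozygous (Gnb5+/−) for a germline deletion of exon 3 of Gnb5 and 6 were wild type (Gnb5+/+). Gnb5 encodes the beta 5 subunit of G proteins, which acts together with regulators of G protein signalling, and the deletion was carried by every cell of the animal. Whole atria and whole ventricles, left and right together, came from all 3 genotypes, and whole cerebellum, hippocampi and whole cerebral cortex came from Gnb5−/− and Gnb5+/+ mice, which gave 12 groups of 6. All mice were housed in a 12-hour light and 12-hour dark cycle. The hour at which each mouse was killed is not given in the sources used here. The library titles carried a mouse number, so the 5 tissues of a Gnb5−/− or Gnb5+/+ mouse, or the atria and ventricles of a Gnb5+/− mouse, could be joined. Mouse, hour and order of dissection therefore cannot be told apart in any difference between mice given below.

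The circadian clock of mammalian cells is a transcriptional feedback loop. BMAL1, the product of Arntl, pairs with CLOCK or its relative NPAS2 and activates genes through E-box sequences, among them the Per and Cry genes, Nr1d1 and Dbp. The PER and CRY proteins then inhibit that pair, whereas REV-ERB alpha, the product of Nr1d1, represses Arntl and Npas2 through ROR elements (RORE), and DBP, a PAR bZIP factor, activates genes through D-box sequences. In peripheral tissues the transcripts of Arntl and Npas2 are known to be high at about the opposite time of day to those of Nr1d1, Dbp and the Per genes. Clock mRNA is known to vary little over the day in most tissues.

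On GRCm38, the activators lay at chr7:113207465-113314126 on the plus strand (Arntl, ENSMUSG00000055116), chr5:76209868-76304792 on the minus strand (Clock, ENSMUSG00000029238) and chr1:39193731-39363236 on the plus strand (Npas2, ENSMUSG00000026077). The period genes lay at chr11:69095217-69109960 on the plus strand (Per1, ENSMUSG00000020893) and, on the minus strand, at chr1:91415982-91459324 (Per2, ENSMUSG00000055866) and chr4:151003652-151044665 (Per3, ENSMUSG00000028957). Cry1 (ENSMUSG00000020038) lay at chr10:85131700-85185064, Cry2 (ENSMUSG00000068742) at chr2:92403646-92434043 and Nr1d1 (ENSMUSG00000020889) at chr11:98767932-98775333, all on the minus strand, and Dbp (ENSMUSG00000059824) at chr7:45705088-45710203 on the plus strand. Nr1d1 overlaps Thra and Dbp overlaps Sphk2 on the opposite strand, and the strand setting of the counting is not given in the sources used here, so reads of these partners may not be told apart. Each member's values are the sum over its exons, and raw counts ranged from 45 for Per2 to 9317 for Clock.

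Letters of the E-box, the D-box and the ROR core occurred in the promoter windows of several members. They are shown because the comparisons below set the activators Arntl and Npas2 against Per1, Per2, Per3, Nr1d1 and Dbp. These letters were not found for every one of those genes. A window of 300 bases, from 250 before to 50 after a transcription start in RefSeq on GRCm38.p6, was held for 9 of the 10 members (13 windows, none for Per2). Both strands were searched for the E-box CACGTG, its variant CACGTT, the D-box TTANGTAA and the ROR core TNGGTCA, none of which overlapped another in the windows shown. At N any base was accepted. For the ROR core this is looser than the known element, which has A or G at that place. The E-box was present in 7.15% of all 32851 windows in the table, the variant in 4.68%, the D-box in 2.32% and the ROR core in 10.96%. In the lines below, read 5′ to 3′ on the strand of the gene, capitals mark these matches.
Arntl, chr7:113207261-113207560, plus strand, with 3 ROR cores: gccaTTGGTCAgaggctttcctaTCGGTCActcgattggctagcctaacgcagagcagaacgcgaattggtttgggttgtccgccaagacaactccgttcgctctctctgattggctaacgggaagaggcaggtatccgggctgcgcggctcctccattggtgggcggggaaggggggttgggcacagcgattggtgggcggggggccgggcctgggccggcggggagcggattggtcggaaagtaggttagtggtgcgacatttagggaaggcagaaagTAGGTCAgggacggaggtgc
Per1, chr11:69098699-69098998, plus strand, with 1 E-box: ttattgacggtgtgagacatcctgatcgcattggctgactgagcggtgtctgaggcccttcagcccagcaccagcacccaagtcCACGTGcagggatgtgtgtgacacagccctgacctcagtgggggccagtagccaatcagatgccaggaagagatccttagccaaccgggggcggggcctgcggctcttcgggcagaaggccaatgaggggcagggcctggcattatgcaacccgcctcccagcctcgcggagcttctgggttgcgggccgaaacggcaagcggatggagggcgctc
Per3, chr4:151044616-151044915, minus strand, with 2 D-boxes and then 1 ROR core: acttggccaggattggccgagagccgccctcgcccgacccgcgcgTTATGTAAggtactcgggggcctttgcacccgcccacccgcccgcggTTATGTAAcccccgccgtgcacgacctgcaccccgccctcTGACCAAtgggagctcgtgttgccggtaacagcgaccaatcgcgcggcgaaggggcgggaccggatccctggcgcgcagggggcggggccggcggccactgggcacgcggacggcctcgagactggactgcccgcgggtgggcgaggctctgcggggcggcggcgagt
Cry1, chr10:85185005-85185304, minus strand, with 1 variant E-box and then 1 E-box: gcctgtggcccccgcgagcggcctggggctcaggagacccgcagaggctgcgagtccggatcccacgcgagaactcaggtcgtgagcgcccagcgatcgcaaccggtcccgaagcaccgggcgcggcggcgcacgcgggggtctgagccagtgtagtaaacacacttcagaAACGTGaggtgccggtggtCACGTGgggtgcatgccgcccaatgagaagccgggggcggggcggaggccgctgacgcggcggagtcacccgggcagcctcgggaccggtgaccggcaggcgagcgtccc
The ROR cores of Arntl lay 246 and 227 bases before the start and 30 bases after it, the E-box of Per1 lay 166 bases before its start, and the D-boxes of Per3 lay 205 and 158 bases before its start. In Cry1, the E-box and its variant lay 60 and 79 bases before the start. Among the other members, Cry2 held a variant E-box and a ROR core and Nr1d1 a variant E-box. None of these letters was found in the windows of Clock, Npas2 and Dbp or in the other window of Per1. Of the ROR core matches, only TAGGTCA of Arntl, 30 bases after its start, had A or G at N. The matches describe the letters of the windows, and binding was not measured.

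The libraries held 29204390 to 48807435 reads counted on genes, with a median of 38864900. Normalised counts below are CPM, that is counts scaled to library size, after TMM scaling within a tissue. Gnb5 checked the genotype labels: its mean normalised count in Gnb5+/+, Gnb5+/− and Gnb5−/− mice was 29.7, 15.5 and 1.84 in atria and 18.3, 9.52 and 0.934 in ventricles, and its mean in Gnb5+/+ and Gnb5−/− mice was 148 and 20.7 in cerebellum, 99.5 and 12.8 in hippocampus and 136 and 15.96 in cortex, with no library of one genotype among those of the next. In 4 libraries the share of reads outside genes was below 0.75 of the tissue median, a limit set after seeing the data, and these are called the set-apart libraries: the ventricles of Gnb5+/− mouse 4 (2.85% against a median of 4.71%), the cerebellum of Gnb5−/− mouse 12 (8.02% against 16.2%) and the cortex of Gnb5−/− mice 14 and 3 (6.86% and 8.32% against 14.2%). Results that use them are given also without them where that was computed. The limit concerned low shares only. The ventricles of Gnb5−/− mouse 14 and Gnb5+/+ mouse 8, which were not set apart, had the highest shares of that tissue (5.71% and 5.52%). Their counts on mitochondrial genes were 26.5% and 28.1% of the total, against 34.4% to 44.8% in the other ventricles. The tissue labels were checked with marker lists: the summed normalised count of 4 atrial genes was 18088 to 32997 in atria and 60.6 to 208 in ventricles, that of 3 ventricular genes 8201 to 13499 in ventricles and 38.2 to 1203 in atria, and that of 3 neuronal genes 3042 to 5133 in brain and at most 8.55 in heart. The 4 cerebellar genes summed to 1755 to 2412 in cerebellum and at most 29.3 elsewhere, and the 3 cortical genes to 254 to 344 in cortex against 73.8 to 103 in hippocampus. The 3 hippocampal genes summed to 298 to 507 in hippocampus, above cerebellum and cortex (61.0 to 240.1) but below heart (948 to 1972), so they set hippocampus apart only within the brain. The 4 choroid plexus genes ran from 32.2 to 1502 in Gnb5+/+ hippocampus and 10.9 to 703 in Gnb5−/− cortex. In cerebellum they ran from 3.47 to 890 in Gnb5−/− and 4.40 to 8.89 in Gnb5+/+ mice. The ventricular genes reached 65.5 in Gnb5+/+ hippocampus (median 0.377). The part of such tissue in the clock gene values was not tested.

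To ask where each member was expressed, levels were compared among the 5 tissues of the 6 Gnb5+/+ mice as RPKM, which corrects for gene length. Nr1d1, the repressor of Arntl, had the highest level of the 10 in every tissue, from a mean of 48.0 ± 21.1 RPKM in atria to 21.5 ± 1.84 in hippocampus (SD, n = 6). Cry2, a repressor of the activator pair, was higher in each brain region than in heart, at 22.0 ± 1.13 RPKM in cortex, 19.9 ± 1.12 in hippocampus and 18.1 ± 2.00 in cerebellum against 6.45 ± 0.796 in atria and 5.403 ± 1.12 in ventricles. Its relative Cry1 was instead highest in cerebellum, at 12.4 ± 2.19 RPKM, against 2.86 to 4.16 in the other tissues, and the lowest cerebellum (9.58) lay above the highest library of any other tissue (6.08). Npas2, the partner of BMAL1 that is abundant in forebrain, was at 8.74 ± 1.02 RPKM in cortex, 4.62 ± 0.364 in hippocampus, 3.57 ± 0.677 in atria, 1.955 ± 0.219 in ventricles and 0.732 ± 0.126 in cerebellum. Clock, its alternative, went the other way in cerebellum, where its 10.6 ± 0.352 RPKM was the highest of the 5 tissues. In bulk tissue, fewer cells of a type and less RNA per cell cannot be told apart.

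The other members differed less between tissues or varied more between mice. Per2 was at 7.17 to 8.32 RPKM in the 3 brain regions and at 2.53 ± 1.68 in atria and 1.81 ± 1.69 in ventricles. Per3 was likewise at 5.54 to 6.74 RPKM in brain and at 2.02 ± 0.581 and 2.06 ± 0.682 in atria and ventricles. Per1, the period gene that is also induced acutely by light and other stimuli, ranged from 16.98 ± 4.80 RPKM in cortex to 7.92 ± 6.84 in ventricles. Arntl lay between 4.75 ± 0.494 RPKM in hippocampus and 7.81 ± 1.26 in atria. Dbp had its mean highest in cortex, at 9.39 ± 0.884 RPKM, and its widest spread in ventricles, from 2.42 to 14.3.

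**Figure D1:**
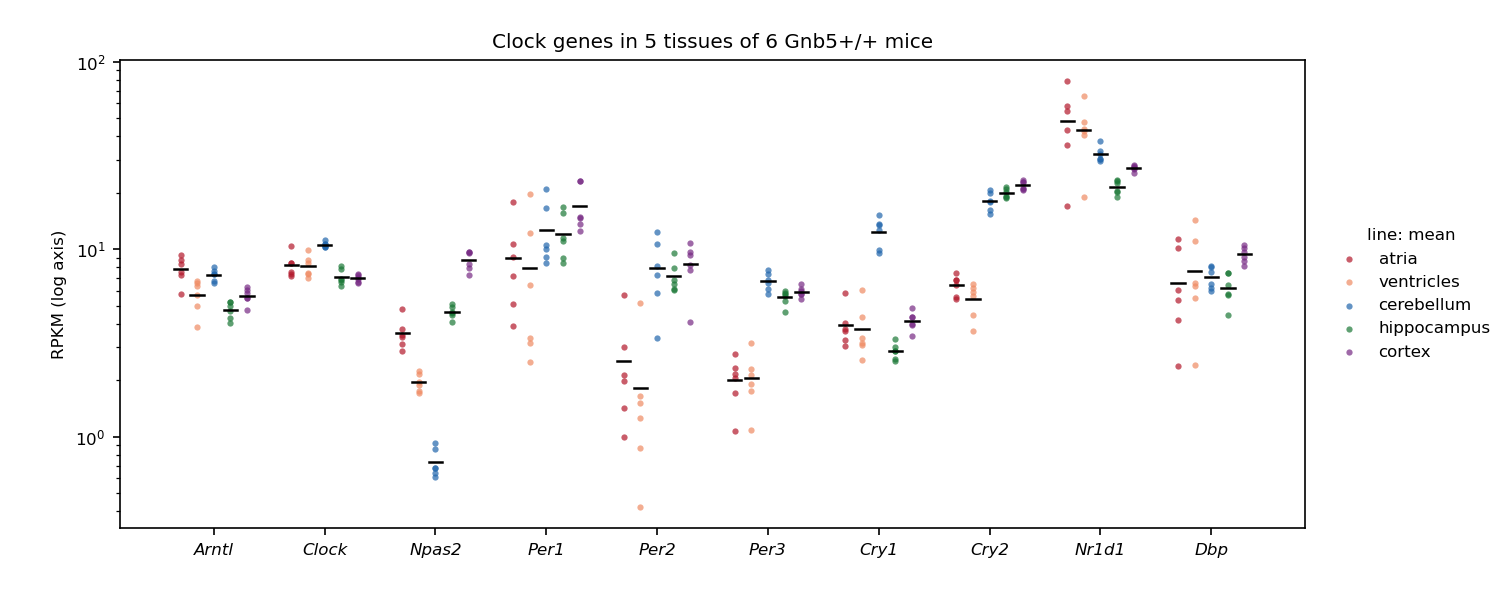
Level of each clock gene in the 5 tissues of the 6 Gnb5+/+ mice, in RPKM on a log axis, with 1 point per library and a line at the mean. Nr1d1 is highest in every tissue, Cry1 stands out in cerebellum and Npas2 runs from 8.74 in cortex to 0.732 in cerebellum.

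Tested over the 5 tissues with edgeR, blocking on the animal, 9 of the 10 members differed between tissues, a share to be read against the 98.5% of all 19477 genes that did so. Dbp was the exception (adjusted p = 0.0572). With RLE scaling all 10 passed, and the share of all genes in that fit is not given here. In the order of levels, neighbours that were separated by edgeR included Npas2 at every step (adjusted p of 0.000151 or less), Cry1 from cerebellum to cortex (5.21e-13) and Cry2 from cerebellum to atria (1.27e-15). The step from hippocampus down to the nearest heart tissue separated Per2 from atria (adjusted p = 1.84e-07) and Per3 from ventricles (2.18e-10). No neighbouring tissues were separated for Nr1d1 (adjusted p of 0.0701 to 0.563) or Dbp (0.0981 to 0.993), and no pair of brain regions was separated for Per2 (0.62497 to 0.943) or Per3 (0.0745 to 0.619). Some tissues farther apart in the order were separated by edgeR for Nr1d1 and Dbp. For Nr1d1 these included hippocampus from atria (adjusted p = 4.06e-06) and from ventricles (2.59e-05). For Dbp, cortex was separated from atria (0.0121) and from hippocampus (0.0346). For Cry2, cortex and cerebellum were separated (log2 difference 0.29 ± 0.081 SE, adjusted p = 0.00227), and hippocampus was separated from neither (0.161 and 0.114). Atria and ventricles were separated for Npas2, Arntl and Cry2 (adjusted p = 5.03e-09, 3.54e-05 and 0.00914) and not for the other 7 members (adjusted p of 0.0698 to 0.897).

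Within a tissue the members varied widely between mice. Per2 in ventricles ran from a normalised count of 1.54 in Gnb5+/+ mouse 15 to 18.2 in Gnb5+/+ mouse 7, an 11.8-fold range within a single genotype. Per1 in ventricles ran 8.09-fold, from 8.32 in mouse 8 to 67.4 in mouse 7, again both Gnb5+/+. Dbp ran 6.92-fold in ventricles and 6.11-fold in atria, and Nr1d1 ran 6.51-fold in atria, from 31.3 in Gnb5+/− mouse 9 to 204 in Gnb5+/+ mouse 18. The activators covered less: Arntl ran 1.79-fold in atria and 2.25-fold in ventricles, and Npas2 ran 2.08-fold and 2.14-fold. Clock, leaving aside the set-apart ventricles of mouse 4, lay between 57.2 and 85.1 in ventricles. The SD of log2 normalised counts around the genotype mean had a median over the 10 members of 0.46 in atria and 0.43 in ventricles, against 0.20 for all genes in both, and of 0.23 in hippocampus against 0.11. In cerebellum and cortex it was 0.34 and 0.27 with all libraries, against 0.25 and 0.28 for all genes. Without the set-apart libraries it was 0.22 and 0.15, with no median of all genes given here for that setting to set beside it.

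Individual mice illustrate how the genes moved. In mouse 7 the counts of Per2 were 28.1 in atria, 18.2 in ventricles, 94.4 in cerebellum, 69.0 in hippocampus and 80.04 in cortex, and in mouse 15 of the same genotype they were 4.89, 1.54, 25.3, 47.2 and 30.8. Mouse 7 was thus the highest Gnb5+/+ mouse for Per2 in all 5 tissues, and mouse 15 the lowest in all but hippocampus, where mice 17 and 18 were lower. Arntl was ordered the other way in mouse 7, at 36.5 in atria and 17.5 in ventricles, the lowest of the Gnb5+/+ mice in both. Among Gnb5−/− mice, mouse 14 had the highest Dbp in atria (34.8, against 5.69 to 23.5 in the other 5), ventricles (19.6, against 3.76 to 11.97) and hippocampus (37.7, against 17.9 to 35.3), and the lowest Arntl in atria (35.0) and ventricles (15.1). Mouse 1 of that genotype had the highest Arntl in atria, ventricles and cerebellum (62.5, 33.6 and 82.1) and the lowest Per3 in atria, ventricles and hippocampus (9.83, 5.24 and 43.5).

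Not every mouse was placed by 1 axis from high Arntl to high Per2. Gnb5+/+ mouse 8 combined the lowest Per1, Nr1d1 and Dbp of its genotype in heart, at 18.4, 44.0 and 5.94 in atria and 8.32, 34.6 and 4.26 in ventricles, with the highest Cry1, at 16.3 and 11.9. Gnb5+/− mouse 9 also paired the highest Cry1 of its genotype (18.1 in atria and 10.6 in ventricles) with the lowest Nr1d1 (31.3 and 32.9), but its Per2 in atria, 15.2, was the highest of the 6. By contrast, Gnb5+/+ mouse 18 had the highest Nr1d1 in atria and ventricles (204 and 123) and the highest Dbp in ventricles (25.99) with Per2 at 14.9 and 5.88, second to mouse 7. In cerebellum, hippocampus and cortex of mouse 18, Dbp was at 24.3, 21.0 and 33.3 and Nr1d1 at 129, 86.04 and 109.7, each between the lowest and the highest of its genotype.

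**Figure D2:**
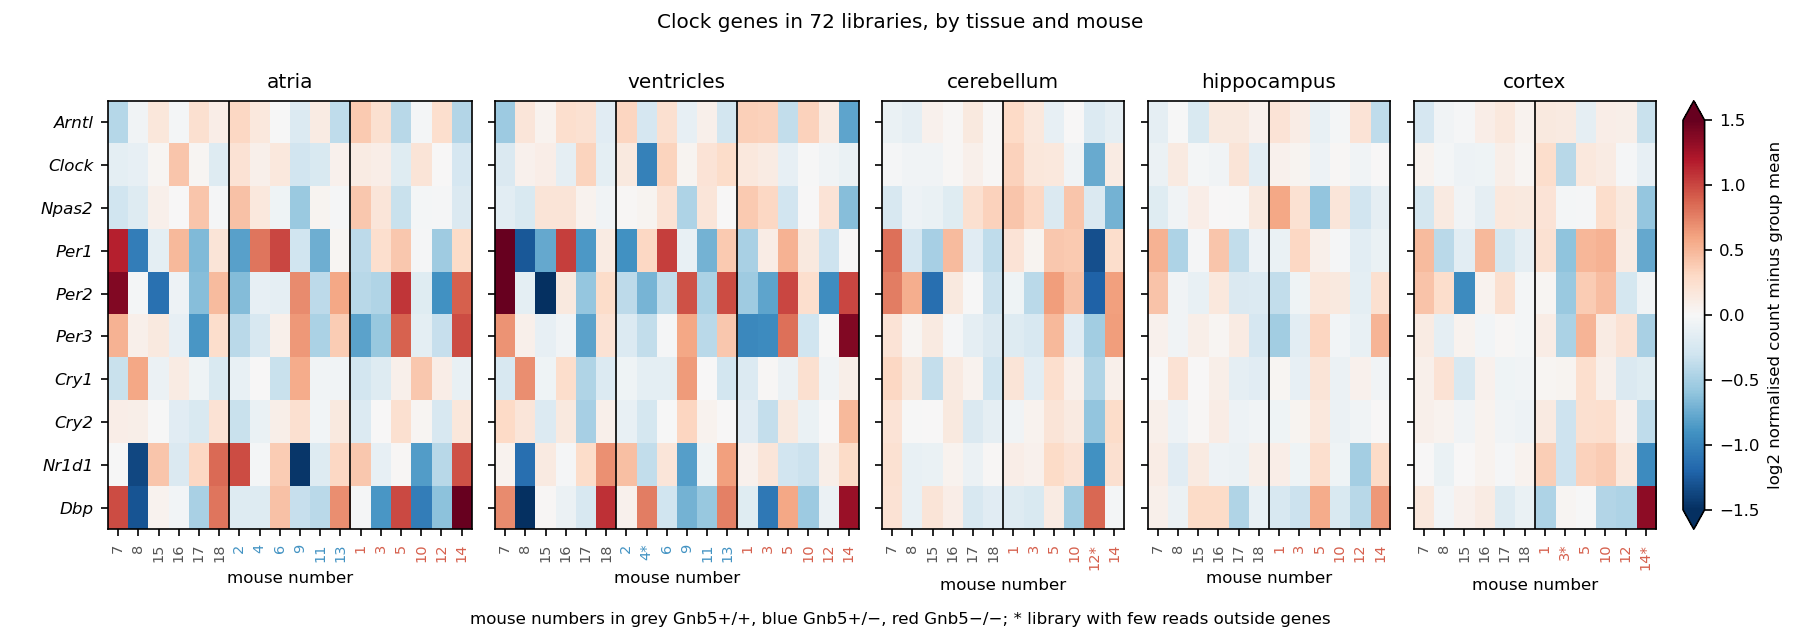
Log2 normalised count of each clock gene minus the mean of its tissue and genotype, for every library, with mice in columns (grey numbers Gnb5+/+, blue Gnb5+/−, red Gnb5−/−) and an asterisk on the 4 set-apart libraries. Mice 7, 5 and 14 show low Arntl with high Per2 and Dbp in heart, mouse 8 shows low Per1, Nr1d1 and Dbp with high Cry1, and the colours are paler in brain.

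Whether a mouse kept its deviation over its tissues was tested with a joint F test of the mouse terms in edgeR, after tissue and genotype. Over the 60 libraries of the 12 Gnb5−/− and Gnb5+/+ mice, 7 of the 10 members passed, where 6.48% of all 20358 genes did. The adjusted p was 2.35e-06 for Per2, 4.80e-06 for Arntl, 1.39e-05 for Per1, 1.59e-05 for Npas2, 0.000436 for Dbp, 0.000456 for Per3 and 0.0108 for Cry1. Cry2 (0.276), Nr1d1 (0.408) and Clock (0.491) did not pass. Both arms of the loop, the activators Arntl and Npas2 and their targets, were therefore among the genes with a mouse effect. Without the set-apart libraries Nr1d1 and Cry2 passed as well (adjusted p = 0.0293 and 0.00429), which made 9, and Clock did not (0.107), while the share of all genes rose to 13.5%. In Gnb5+/+ mice alone 5 members passed (Per1, Per2, Cry1, Arntl and Npas2) against 8.39% of all genes, and in Gnb5−/− mice alone also 5 (Arntl, Npas2, Per2, Dbp and Per3) against 1.7%, with 6 mice in each.

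In the heart alone, over the atria and ventricles of all 18 mice, 8 of the 10 members passed against 6.94% of 16507 genes. The smallest adjusted p-values were 3.38e-09 for Per2, 4.77e-09 for Per3 and 5.96e-08 for Per1, and Nr1d1, which did not pass over all tissues, reached 4.28e-05 here. Cry2 (0.0600) and Clock (0.706) did not pass. In the brain alone, over 3 regions of 12 mice, 3 members passed against 3.46% of 19388 genes: Npas2 (adjusted p = 0.0158), Arntl (0.0200) and Per2 (0.0417). The brain count depended on a few libraries. It was 9 without the set-apart ones, the exception again being Clock (adjusted p = 0.108), where 19.2% of all genes passed, and 6 by DESeq2, where 8.85% did. It ranged from 0 to 5 when 1 mouse was left out, with 0 without Gnb5−/− mouse 1. The shares of all genes in those fits are not given here.

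As a description of this effect, the share of the variation around group means that the mouse means held was computed. With no mouse effect this share is not 0 but about the inverse of the number of tissues. Values over all tissues, in heart and in brain therefore cannot be set against each other. Each is to be read beside the median of all genes. With all tissues it was 71.0% for Per2, 70.3% for Arntl, 69.5% for Npas2 and 65.6% for Per1, and 29.9% for Clock, with a median over the 10 members of 57.6% and over 13506 genes of 22.1%. In the heart it ran from 52.1% for Clock and 77.5% for Cry2 to 97.1% for Per3 and 96.3% for Per2, with medians of 90.7% for the members and 54.0% for all genes. In the brain the medians were 56.3% and 32.3%. Other groups of genes also varied by mouse. Over all tissues, 7 of 10 immediate early genes and 5 of 8 glucocorticoid response genes passed. So did 7 of 7 genes of a heat shock list that also held Cirbp, which encodes a cold-inducible RNA-binding protein. None of the adipocyte, choroid plexus, neuronal, cerebellar, hippocampal and cortical markers passed. Of the other marker lists, 2 of 4 blood, 1 of 4 skeletal muscle, 1 of 4 striatal, 1 of 4 atrial and 1 of 3 ventricular genes passed. In the heart alone, where 6.94% of all genes passed, both neuronal markers tested did, as did Ttr (choroid plexus), Actn3 (skeletal muscle) and Hba-a2 (blood). The neuronal genes were near the floor there, with a median summed count of 0.33 to 0.42 in atria by genotype. The part of these groups of genes in the differences of the clock genes was not tested.

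To ask whether heart and brain of a mouse moved in the same direction, the mean centred log2 count of a gene in atria and ventricles was set against its mean in the 3 brain regions over the 12 mice, which gave 10 relations. Permutations here and below moved mice only within a genotype. Arntl had the closest relation, with Pearson's r of 0.906 (permutation p = 0.00022) and Spearman's rho of 0.853 (permutation p = 0.00085). Without mice 7 and 14, the farthest from the median in heart, its r was 0.793. Per2 followed, with r of 0.849 (permutation p = 0.00313) and rho of 0.846 (permutation p = 0.00281), and 0.729 without mice 7 and 15. For Per1, r was 0.815 (permutation p = 0.0032) and rho 0.804 (permutation p = 0.00499), and r was 0.686 without mice 7 and 8.

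Npas2, Per3 and Dbp were positively related too, with smaller values. Their r was 0.767, 0.759 and 0.671 (permutation p = 0.016, 0.0221 and 0.0241), their rho 0.671, 0.657 and 0.629 (permutation p = 0.0556, 0.0459 and 0.0382), and without the 2 farthest mice r fell to 0.518, 0.558 and 0.575. For Cry2, Cry1, Clock and Nr1d1, r was 0.439, 0.347, 0.234 and 0.0571, with permutation p from 0.177 to 0.837 and rho from −0.01 to 0.455 (permutation p from 0.165 to 0.974). Without the set-apart libraries r was 0.929 for Per1, 0.913 for Arntl, 0.853 for Per2, 0.843 for Per3, 0.782 for Npas2, 0.676 for Cry2, 0.674 for Dbp, 0.415 for Clock, 0.404 for Nr1d1 and 0.390 for Cry1. The median r of the 10 members was 0.715, and that of all 13506 genes was 0.159. A mouse with high Per2, Per1 or Arntl in the heart therefore tended to have it high in the brain as well, whereas for Nr1d1 no such relation was measured with all libraries.

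**Figure D3:**
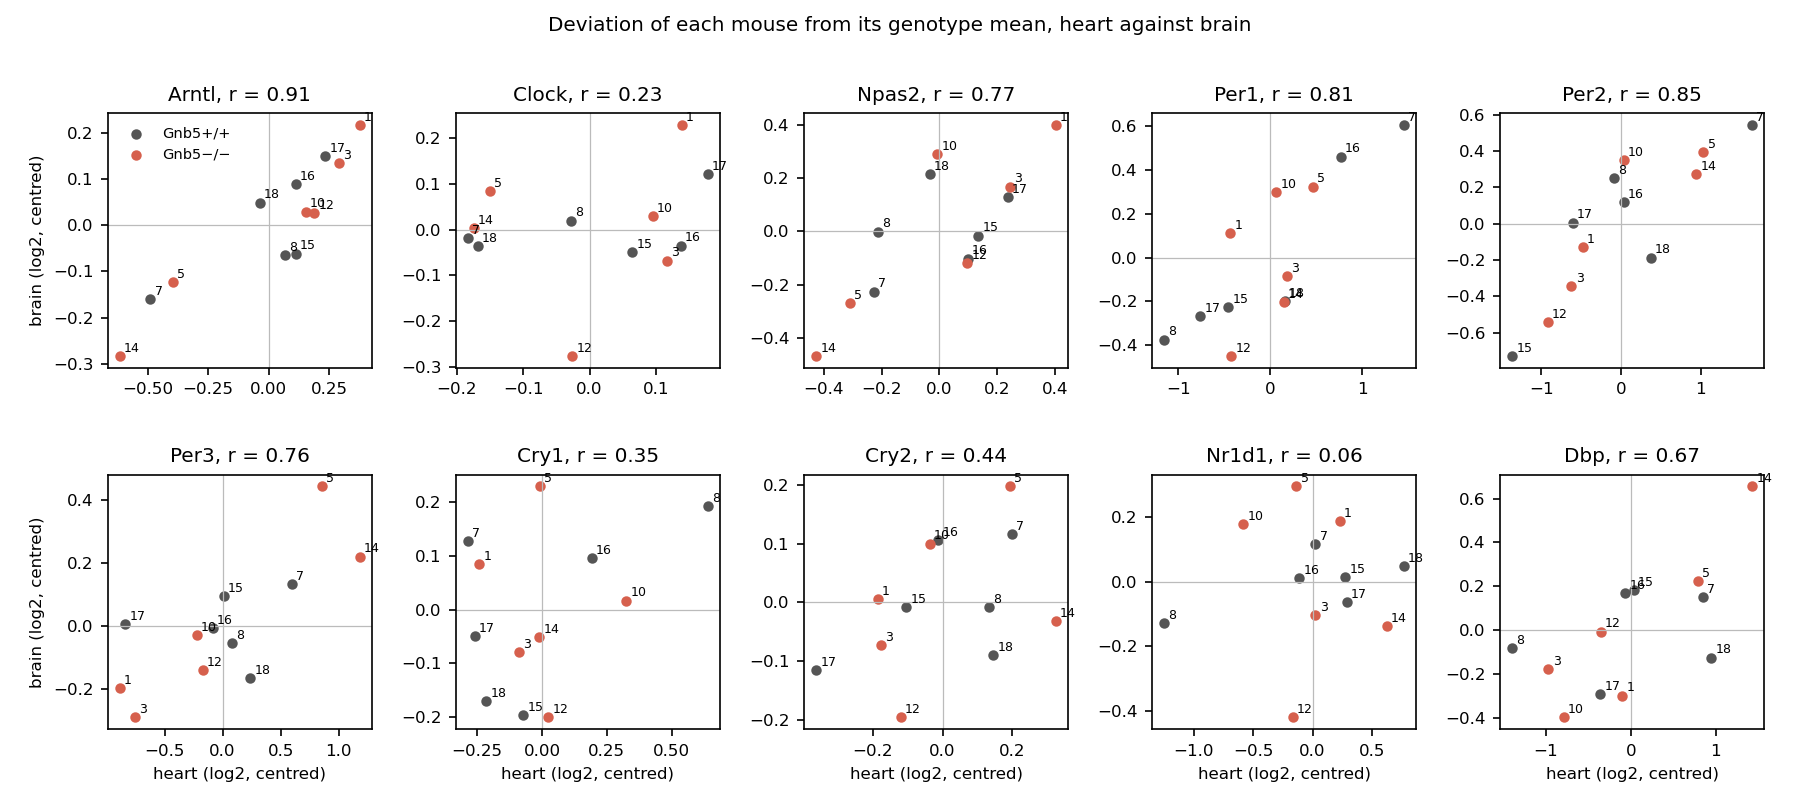
Mean centred log2 count in heart (x axis) and in brain (y axis) of each of the 12 mice with both, 1 panel per gene, with mouse numbers beside the points (grey Gnb5+/+, red Gnb5−/−). Points run along a diagonal for Arntl (r = 0.906) and Per2 (r = 0.849), and scatter for Nr1d1 (r = 0.0571). Both genotypes share a centre by construction. Scales differ between panels and axes.

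Between single tissues the closest pair was atria and ventricles, where 18 mice could be compared. There r was 0.951 for both Per2 and Per3, 0.918 for Per1, 0.867 for Nr1d1, 0.860 for Dbp, 0.831 for Cry1, 0.773 for Arntl, 0.686 for Npas2, 0.578 for Cry2 and 0.0455 for Clock, with permutation p of 0.0173 or less for each except Clock (0.909), among 100 relations of 10 genes in 10 tissue pairs. The rank correlation (Spearman) was between 0.624 and 0.932 for the same 9 genes (permutation p of 0.0116 or less) and 0.228 for Clock, and r without the 2 farthest mice between 0.569 and 0.931. Across organs the median r of the members with atria was 0.614 for cerebellum, 0.6997 for hippocampus and 0.352 for cortex. With ventricles it was 0.498, 0.655 and 0.434 in the same order. The median of all genes in these pairs was between 0.0631 and 0.135. Without the set-apart libraries the members' median was 0.862 for atria and ventricles, 0.666 for atria and cerebellum and 0.716 for ventricles and cerebellum. For cortex with atria and with ventricles it was then 0.583 and 0.478. With all libraries cortex was the least related to the others. The members' median r of cortex with cerebellum was 0.223 with all libraries and 0.845 without the set-apart ones, which left 9 mice. Per3 shows the difference, with r between cerebellum and cortex of −0.06 (permutation p = 0.904) and rho of −0.03 (permutation p = 0.943) with all 12 mice, r of −0.02 without mice 5 and 14 and r of 0.849 with the 9 mice left without the set-apart libraries.

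The relation of each member to Arntl over mice was then examined within a tissue, as 45 relations. In atria, Npas2 rose with Arntl (r = 0.791, permutation p = 0.00028, rho = 0.866, permutation p = 1e-05, the smallest the resampling can give), and Per3 and Per2 ran against it (r = −0.88 for both, permutation p = 2.0e-05 and 7.0e-05, rho = −0.85 and −0.89, permutation p = 6.0e-05 and 2.0e-05). Cry2 also ran against Arntl there (r = −0.75, permutation p = 0.00132, rho = −0.81, permutation p = 0.00023). Without mice 7 and 14, r was 0.771 for Npas2, −0.85 for Per3, −0.82 for Per2 and −0.76 for Cry2. In ventricles the same signs were found, with r of 0.728 for Npas2, −0.83 for Per3, −0.74 for Dbp and −0.67 for Per2 (permutation p from 0.00031 to 0.00466, rho of 0.674, −0.76, −0.64 and −0.52 with permutation p from 0.00219 to 0.0507), and without mice 7 and 14 r was 0.568, −0.70, −0.63 and −0.49. Without the set-apart ventricles of mouse 4 it was 0.751, −0.89, −0.73 and −0.74. Nr1d1, in contrast, had no measurable relation to Arntl in atria (r = 0.117, permutation p = 0.648, rho = 0.168, permutation p = 0.524) or ventricles (r = −0.08, permutation p = 0.72, rho = −0.05, permutation p = 0.842).

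In hippocampus, where no library stood apart, Dbp, Per3 and Nr1d1 ran against Arntl, with r of −0.77, −0.75 and −0.67 (permutation p = 0.00769, 0.0139 and 0.0395) and rho of −0.75, −0.64 and −0.74 (permutation p = 0.0116, 0.0472 and 0.0118), and r was −0.58, −0.59 and −0.54 without mice 14 and 15. In cerebellum the relation of Per3 to Arntl was r = −0.32 (permutation p = 0.445, rho = −0.32, permutation p = 0.381) with all mice, −0.73 without mice 1 and 12 and −0.76 without the set-apart library of mouse 12 alone, in which both were low. In cortex Npas2 and Dbp followed the heart, with r of 0.803 and −0.77 (permutation p = 0.00838 and 0.00985, rho = 0.678 and −0.62, permutation p = 0.0228 and 0.0398), with r of 0.307 and −0.43 without mice 7 and 14 and of 0.710 and −0.76 without the set-apart libraries. Per3 in cortex had r of 0.102 with all mice (permutation p = 0.87, rho = −0.02, permutation p = 0.959), −0.47 without mice 7 and 14 and −0.66 without its 2 set-apart libraries. Per3 thus ran against Arntl in heart and hippocampus with all libraries, and its relation in cerebellum and cortex changed with 1 or 2 libraries.

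As a description of each library, the mean centred log2 count of Per1, Per2, Per3, Nr1d1 and Dbp minus that of Arntl, Clock and Npas2 was formed, with no test, since it is a score over the members. Its SD over mice was 0.64 in atria, 0.69 in ventricles, 0.37 in cerebellum, 0.33 in hippocampus and 0.22 in cortex. Mouse 7 (Gnb5+/+) and mice 5 and 14 (Gnb5−/−) were above 0 in all 5 tissues, with values of 1.10, 1.32, 0.57, 0.37 and 0.39 for mouse 7 in atria, ventricles, cerebellum, hippocampus and cortex. Mice 1, 3 and 12 (Gnb5−/−) and 17 (Gnb5+/+) were below 0 in all 5, with values from −0.72 to −0.15 for mouse 1. Because the counts were centred on genotype, mice of each genotype lie on both sides of 0 by construction. Heart and brain means had the same sign in 10 of 12 mice, and in 9 when Dbp minus Arntl alone was used. The exceptions were mouse 16, at −0.01 in heart and 0.17 in brain, and mouse 18, at 0.55 and 0.60 in atria and ventricles and −0.35, −0.13 and −0.13 in cerebellum, hippocampus and cortex. Among Gnb5+/− mice the contrast in atria and ventricles had the same sign in mice 2, 9, 11 and 13, and differed in mice 4 and 6. The ventricles of mouse 4 were a set-apart library, so without it that mouse had only atria. Without the set-apart libraries, mice 3 and 12 were below 0 and mouse 14 above 0 in the 4 tissues left to each. Heart and brain means then still had the same sign in 10 of 12 mice.

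**Figure D4:**
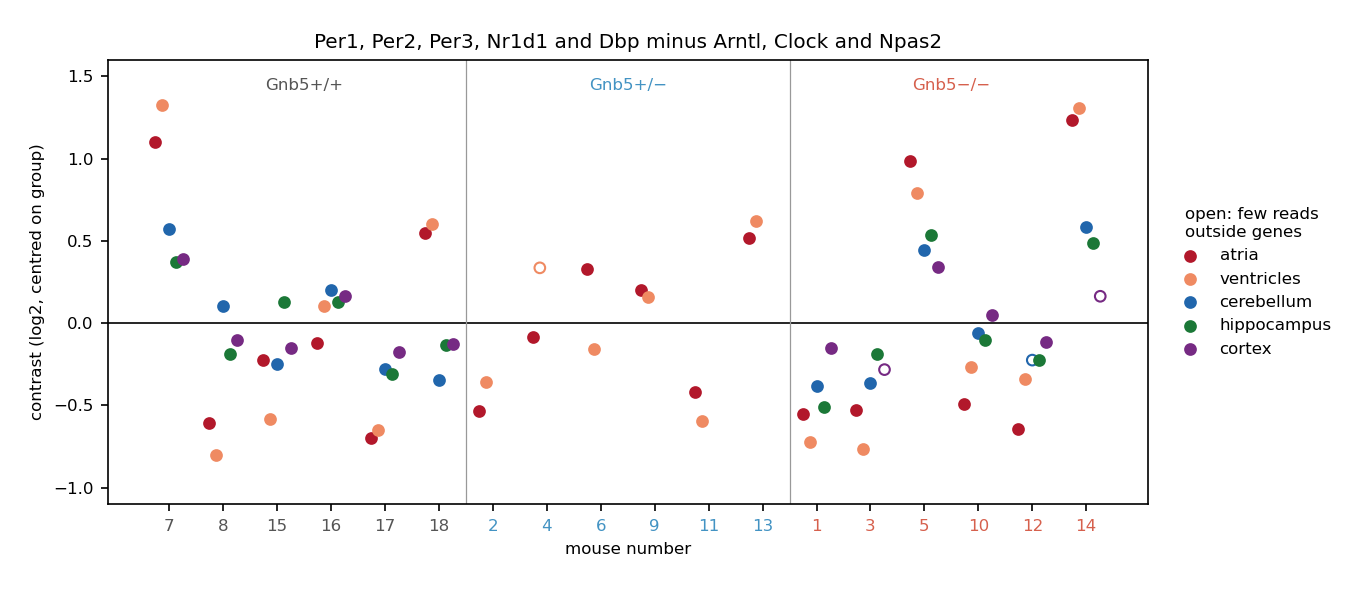
Mean centred log2 count of Per1, Per2, Per3, Nr1d1 and Dbp minus that of Arntl, Clock and Npas2 in every library, by mouse and genotype, with 1 colour per tissue and open points for the 4 set-apart libraries. Mice 5, 7 and 14 lie above 0 and mice 1, 3, 12 and 17 below 0 in all 5 tissues, and mouse 18 lies above 0 in heart only.

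Of 18 further clock genes, 6 passed the mouse effect over all tissues in edgeR against the same 6.48%: Usp2, a deubiquitinase, Ciart, a repressor of the activator pair, Hlf and Tef, the PAR bZIP relatives of Dbp, Bhlhe41, an E-box repressor, and Nr1d2, the relative of Nr1d1. Their adjusted p ranged from 6.49e-05 for Usp2 to 0.000329 for Nr1d2. As a description, since a mouse effect over all tissues chose these 6, r between heart and brain over the 12 mice ran from 0.673 for Nr1d2 to 0.924 for Bhlhe41. Nr1d2 was also the gene whose centred counts were most like those of Dbp over the 72 libraries (r = 0.803, and 0.822 over the 68 libraries left without the set-apart ones), a description without a test because libraries of 1 mouse share the animal. Next on the positive side were Rnf114 (0.627), Ciart (0.624), Gm37986 (0.590) and Nop53 (0.579), and on the negative side Xkr8 (−0.59), Fbxl2 (−0.59), Gas7 (−0.58), Ap3m2 (−0.58) and Ak3 (−0.58). Of these, Rnf114, Gm37986, Nop53, Xkr8, Gas7, Ap3m2 and Ak3 were no longer among the nearest 5 on their side over the 68 libraries, where Ciart was at 0.659. The most negative gene there, named after its value was seen, was Nfil3 (−0.65), which encodes a repressor acting through D-boxes.

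The study's own comparison was between genotypes within a tissue. In Gnb5−/− against Gnb5+/+ mice none of the 10 members was called by edgeR at an adjusted p below 0.05 in atria, ventricles, cerebellum, hippocampus or cortex, where 0.253%, 0.188%, 0.0817%, 0.165% and 0.0557% of all genes tested were called. None was called in Gnb5+/− against Gnb5+/+ atria or ventricles either, where 0.0124% and 0.0202% were. DESeq2 called 0 of the 10 in each of the 7 comparisons too, and none of the 18 further clock genes was called in any by edgeR. At an unadjusted p below 0.05, edgeR counted 3 of the 70 values, Dbp in cerebellum and cortex and Cry1 in hippocampus, and DESeq2 counted 4, with 1 member each in ventricles, cerebellum, hippocampus and cortex. Over all genes and the same 7 comparisons those shares were 6.62% by edgeR and 7.52% by DESeq2, so the members were not below that threshold more often than genes in general, and the values that follow are given for their size.

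Dbp, the output gene of the loop, had the largest difference in brain with all libraries. In cortex its normalised count was 31.2, 35.9 and 39.7 (lowest, median and highest) in Gnb5+/+ mice and 38.8, 46.3 and 135 in Gnb5−/− mice, and the groups overlapped. The log2 fold change was 0.75 ± 0.29 (SE, n = 6 per group, edgeR adjusted p = 0.474, exact permutation p = 0.0152), and the Gnb5−/− library at 135 was the set-apart one of mouse 14. Without the set-apart libraries it was 0.25 ± 0.096 (adjusted p = 0.979). In cerebellum Dbp was at 23.1, 27.3 and 31.8 in Gnb5+/+ and 25.9, 34.5 and 67.7 in Gnb5−/− mice, the highest being the set-apart library of mouse 12, with a log2 fold change of 0.51 ± 0.20 (adjusted p = 0.583, exact permutation p = 0.0281) and of 0.28 ± 0.11 (adjusted p = 0.350) without it. The unadjusted p of Dbp without the set-apart libraries was 0.0233 in cerebellum and 0.0209 in cortex. The largest difference in brain without them was that of Per2 in cerebellum. Its log2 fold change was 0.41 ± 0.27 (SE, edgeR adjusted p = 0.586).

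Cry1, the other member below an unadjusted p of 0.05, differed less. In hippocampus it was at 10.4, 11.8 and 13.6 in Gnb5+/+ and 12.01, 12.99 and 14.96 in Gnb5−/− mice, and the log2 fold change was 0.16 ± 0.074 (edgeR adjusted p = 0.648, exact permutation p = 0.0584). Nr1d1 had lower means in Gnb5−/− hearts, 85.2 ± 38.7 against 125 ± 54.0 (SD, n = 6) in atria and 57.8 ± 9.75 against 81.2 ± 28.4 in ventricles, with overlapping groups, log2 fold changes of −0.55 ± 0.36 and −0.49 ± 0.24 and edgeR adjusted p of 0.768 and 0.9998. The exact permutation p was 0.229 in atria and 0.160 in ventricles. Dbp in ventricles was at −0.60 ± 0.39 (adjusted p = 0.9998), opposite in sign to its values in the brain regions. In Gnb5+/− mice the value farthest from 0 was Per2 in ventricles, at −0.76 ± 0.49 (adjusted p = 0.965). These missed calls do not show equal levels: the 95% interval of the log2 fold change was −0.07 to 0.12 for Cry2 in hippocampus, the narrowest, and −1.73 to 0.20 for Per2 in Gnb5+/− ventricles, the widest. The median log2 fold change of the 10 members lay between −0.20 and 0.06 in the heart comparisons, where that of all genes was within 0.01 of 0.

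**Figure D5:**
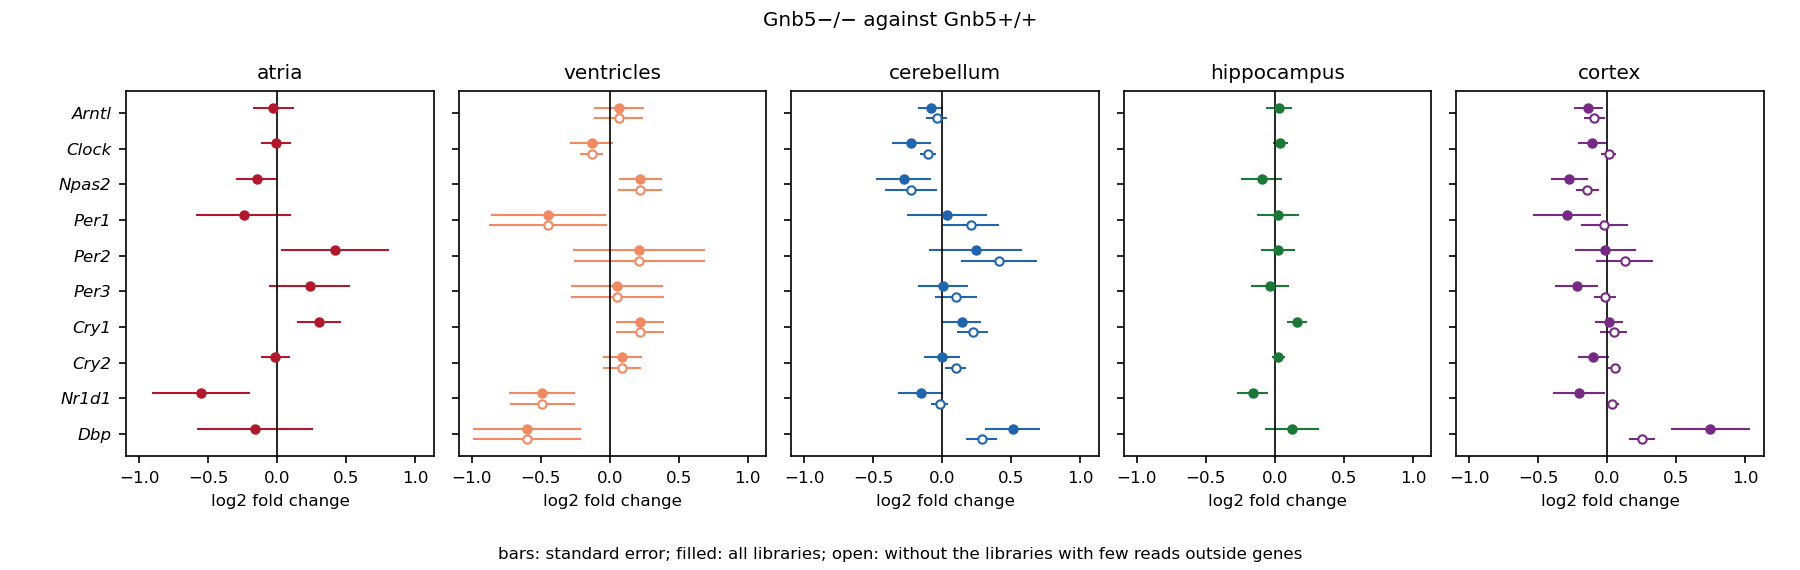
Log2 fold change of each clock gene in Gnb5−/− against Gnb5+/+ mice by tissue, with bars of 1 standard error, filled points for all libraries and open points without the set-apart libraries (ventricles, cerebellum and cortex). No value was called, and the largest with all libraries, Dbp in cortex, moved from 0.75 to 0.25 without them.

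Whether the effect of Gnb5−/− differed between the 5 tissues was tested as an interaction in edgeR, blocking on the animal. None of the 10 members was called, against 0.241% of 20358 genes. The smallest unadjusted p-values were 0.00898 for Dbp and 0.0215 for Npas2 (adjusted p = 0.436 and 0.594), the only 2 members below 0.05 in that fit, where 7.48% of all genes were, and without the set-apart libraries they were 0.0417 and 0.0584. DESeq2 was not run on this interaction.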

How the data were processed

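RNA of 5 tissues was sequenced by the authors on a HiSeq4000 as single-end TruSeq Stranded reads. The deposited values are raw read counts per Ensembl gene made by the authors with HTSeq 0.9.1 after cutadapt 1.8, removal of ribosomal reads and alignment with STAR 2.5.3a to GRCm38. Of 53715 gene identifiers, 53620 were matched to a symbol and 95 were not. Samples were grouped by the tissue, genotype and mouse in their titles.

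Counts were fitted with edgeR 4.0.16 in R 4.3.3 (TMM, filterByExpr with a minimum count of 10, quasi-likelihood F tests, Benjamini-Hochberg adjustment over all genes tested, threshold 0.05), with 1 fit per tissue for genotypes and mouse terms after tissue and genotype for mice. For centred values a prior count of 2 was added, log2 was taken and the mean of tissue and genotype subtracted. RPKM used the union of exons in kb. Intervals of 95% are the log2 fold change with a normal interval from its SE, and exact permutation tests were two-sided over the 924 divisions of 6 against 6 (smallest p 0.0021645). Correlations used 100000 two-sided permutations, with numpy 2.4.6, pandas 2.3.3 and scipy 1.17.1. Figures were drawn with matplotlib 3.10.9.

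The pairing of tissues comes from the mouse numbers, since the same number is the same animal. Replicate numbers join different animals across genotypes. The labels name separate mice as replicates.

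The members and lists were chosen with earlier results of these data known. Named genes were all 10 members, further clock genes with an adjusted p below 0.05 in a genotype comparison or the mouse effect over all tissues, the 5 genes most positively and the 5 most negatively correlated with Dbp, and Gnb5. The lists were 18 further clock genes, immediate early, heat shock (with the cold-inducible Cirbp) and glucocorticoid response genes, and markers of heart chambers, brain regions, neurons, striatum, choroid plexus, blood, adipocytes and skeletal muscle. Alternatives were DESeq2 1.42.0, RLE factors, no filter, a prior count of 0.5, the replicate number as a block, Gnb5−/− and Gnb5+/+ libraries only and leaving out each replicate. Leaving out the 4 set-apart libraries was added after seeing the data. The scripts were tested on simulated data.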

Additional observations from a re-analysis of the deposited data

Results flagged for a closer look

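In 10 of 120 groups of 6 libraries, the highest or lowest normalised count of a clock gene stood apart from the other 5 by more than Dixon's 95% critical value allows. Chance flags about 1 in 20 such groups. Of the 10, 6 were in the 4 libraries with few reads outside genes.

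In the ventricles of Gnb5+/− mouse 4, Clock was at 30.3, against 63.3 to 77.2 in the other 5. The Gnb5−/− cerebellum of mouse 12 had Clock at 93.4 (others 152 to 199.9), Per1 at 35.5 (others 90.5 to 117) and Nr1d1 at 59.4 (others 117 to 136). In the Gnb5−/− cortex of mouse 14, Npas2 was at 29.1 (others 42.4 to 52.1) and Dbp at 135 (others 38.8 to 54.4).

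The other 4 were in libraries that did not differ in that share. Clock in the atria of Gnb5+/+ mouse 16 was at 126, against 83.1 to 97.1. Gnb5+/− mouse 9 had Npas2 at 3.97 (others 5.52 to 6.39) and Cry1 at 10.6 (others 5.59 to 6.83) in ventricles. Per2 in the cortex of Gnb5+/+ mouse 15 was at 30.8, against 58.0 to 80.04.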

How the results depend on the processing

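The count of members with a mouse effect in brain, 3, was 1 with no filter on low counts, 6 by DESeq2, 9 without the set-apart libraries and 0 to 5 when 1 replicate was left out. The share of all genes was 3.46% in the main fit, 8.85% by DESeq2 and 19.2% without the set-apart libraries. With no filter, 579 of 36065 genes passed. The shares with 1 replicate left out are not given here. No member was called for genotype under any alternative that was run. Some uncalled log2 fold changes changed sign, and the cause was not tested. Without the set-apart libraries these were Clock in Gnb5+/− ventricles (0.0508), Cry2 in Gnb5−/− cerebellum (0.0968) and, in Gnb5−/− cortex, Nr1d1 (0.0368), Clock (0.0107), Per2 (0.12) and Cry2 (0.0531). With no filter they were Clock in Gnb5−/− atria (0.0041) and Per3 in Gnb5−/− cerebellum (−0.0013). When 1 replicate was left out in turn, the log2 fold changes whose range included both signs were, in Gnb5+/− atria Per1 −0.15 to 0.41, Npas2 −0.17 to 0.0258, Per3 −0.11 to 0.16, Arntl −0.0367 to 0.11, Per2 −0.52 to 0.0567 and Cry2 −0.0159 to 0.0924, in Gnb5−/− atria Per1 −0.39 to 0.072, Clock −0.044 to 0.0887, Arntl −0.11 to 0.0505, Dbp −0.61 to 0.0639 and Cry2 −0.0646 to 0.0317. Such ranges were, in Gnb5+/− ventricles Cry1 −0.29 to 0.0406, Per1 −0.70 to 0.0821, Npas2 −0.0875 to 0.0397, Clock −0.15 to 0.0508 and Arntl −0.0196 to 0.12, in Gnb5−/− ventricles Per1 −0.63 to 0.0654, Per3 −0.34 to 0.21, Arntl −0.027 to 0.19, Per2 −0.0156 to 0.87 and Cry2 −0.0199 to 0.16. Such ranges were, in Gnb5−/− cerebellum Per1 −0.0561 to 0.24, Per3 −0.14 to 0.10 and Cry2 −0.0613 to 0.0968, in Gnb5−/− hippocampus Per1 −0.0583 to 0.14, Npas2 −0.23 to 0.0031, Per3 −0.15 to 0.0578, Arntl −0.0168 to 0.094, Per2 −0.028 to 0.12, Dbp −0.0279 to 0.21 and Cry2 −0.0105 to 0.0477, in Gnb5−/− cortex Cry1 −0.0426 to 0.057 and Per2 −0.15 to 0.0791.

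Samples with the same replicate number in different genotypes were different mice, and the median correlation of their deviations was −0.10 to −0.02 over the 7 comparisons, so the number did not pair them. With the replicate block, genes called fell from 41 to 37 in Gnb5−/− atria, 28 to 23 in ventricles, 14 to 5 in cerebellum, 29 to 19 in hippocampus and 10 to 6 in cortex, and went from 2 to 3 in Gnb5+/− atria and 3 to 0 in Gnb5+/− ventricles, with 0 members in each. Per3 changed sign with the block in Gnb5+/− atria (−0.0148), Gnb5−/− ventricles (−0.12) and Gnb5−/− cerebellum (−0.0510). Without the mouse block, 8 members differed between tissues and 0 in the interaction. With the block these counts were 9 and 0, where 98.5% and 0.241% of all genes were called. The shares of all genes without the block are not given here. DESeq2 called 7, 110, 3, 63, 49, 104 and 25 genes in the comparisons of Gnb5+/− atria, Gnb5−/− atria, Gnb5+/− ventricles, Gnb5−/− ventricles, cerebellum, hippocampus and cortex. Without the set-apart libraries, edgeR called 62 in cerebellum, 26 in cortex and 42 in Gnb5−/− ventricles.

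Low counts limit Per2 and Npas2 in ventricles and Npas2 in cerebellum, and 6 mice a group limit every genotype comparison.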
